A study of Mus musculus with 26 samples.

Results

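Sry, the testis-determining gene of the Y chromosome, was followed together with 8 genes that act before it in the mouse gonad: Gadd45g, Map3k4, Kdm3a, Six4, Gata4, Zfpm2, Cbx2 and Nr5a1. The 9 genes were chosen by name, as Sry and the regulators known to control its transcription, with earlier results of these data known. All 9 were found among the 57186 genes of the count table that holds wild type and every Fgf9 deletion, and among the 31053 genes of the Meis1 count table. All 9 passed the filter on low counts in both tables.

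The libraries were made from poly(A) RNA of mouse XY gonads at E13.5 (E for embryonic day),, dissected away from the mesonephros. There were 6 groups: wild type (WT, 3 libraries), the Fgf9 genotypes Δ306 (3), Δ225 (6), Δ104 (4) and Δ93 (6), and Meis1 KO (4). Fgf9 encodes a growth factor that maintains the testis fate of supporting cells, and Meis1 encodes a homeobox transcription factor. The labels give no age beyond the embryonic stage, no strain, no zygosity, no litter, no statement on pooling and no boundaries of the deletions. Replicates are numbered, and are called biological replicates for Meis1 KO and for Δ225, Δ104 and Δ93. For WT and Δ306 nothing states separate animals, so their p-values measure the spread between these libraries, which may in part be technical. All comparisons with WT used the same 3 WT libraries, whose reads were counted separately for the table of all deletions and the Meis1 table. WT and Δ306 belong to the first deposit of the series, and Δ225, Δ104, Δ93 and Meis1 KO were added later. Between groups of different deposits, genotype and deposit cannot be told apart.

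In mouse XY gonads Sry is transcribed for a short window in the precursors of Sertoli cells, earlier than the stage sampled here, and is then switched off as Sox9 takes over and the testis forms. Several inputs turn it on. GADD45G and the kinase MAP3K4 act through p38 MAP kinase on GATA4, GATA4 works with its cofactor FOG2 (encoded by Zfpm2), SIX4 acts on Nr5a1 and Zfpm2, KDM3A removes methyl groups from lysine 9 of histone H3 at the Sry locus, and CBX2 is a Polycomb subunit needed for Sry and Nr5a1 expression. NR5A1 (SF1) is a nuclear receptor of gonadal somatic cells.

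The annotation (GENCODE M21, GRCm38) places Sry (ENSMUSG00000069036) at chrY:2662471-2663658 on the minus strand, as 1 exon of 1188 bp. Gadd45g lies at chr13:51846678-51848468 on the plus strand with 3 exon blocks, and Kdm3a at chr6:71588972-71632990 on the minus strand with 26. No other annotated gene shared exon bases with any of the 9. Promoter windows, from 250 bases before to 50 after the annotated start, were matched for 5 of the 9 genes in RefSeq (GRCm38.p6). The windows of Sry and of the 2 regulators that passed the test in a comparison, Gadd45g and Kdm3a (the first of its 3 windows), are shown because the counts of these genes carry the results. Capitals mark matches to GATA, the core bound by GATA4, on either strand; AAGGTCA, a half-site of NR5A1, was searched on both strands too and had no match in these 3 windows.

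Sry, chrY:2663609-2663908, minus strand: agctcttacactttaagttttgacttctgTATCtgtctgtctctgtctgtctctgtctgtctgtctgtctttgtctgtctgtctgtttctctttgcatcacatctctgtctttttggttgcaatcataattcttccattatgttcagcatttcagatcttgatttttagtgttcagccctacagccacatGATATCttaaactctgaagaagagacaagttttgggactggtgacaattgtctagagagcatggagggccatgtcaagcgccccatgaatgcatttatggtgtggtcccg
Gadd45g, chr13:51846425-51846724, plus strand: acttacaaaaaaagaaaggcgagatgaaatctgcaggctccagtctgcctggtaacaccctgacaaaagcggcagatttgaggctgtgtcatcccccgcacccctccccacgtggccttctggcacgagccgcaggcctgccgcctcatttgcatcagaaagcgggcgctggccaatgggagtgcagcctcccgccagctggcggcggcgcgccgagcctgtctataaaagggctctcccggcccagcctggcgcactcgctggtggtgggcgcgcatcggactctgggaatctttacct
Kdm3a, chr6:71632868-71633167, minus strand: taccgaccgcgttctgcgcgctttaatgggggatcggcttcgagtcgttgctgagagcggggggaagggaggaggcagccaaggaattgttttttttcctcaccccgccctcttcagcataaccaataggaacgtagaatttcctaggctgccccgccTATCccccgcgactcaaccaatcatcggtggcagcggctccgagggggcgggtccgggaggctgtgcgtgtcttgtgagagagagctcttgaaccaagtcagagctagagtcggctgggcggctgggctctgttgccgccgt

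The Sry window holds the core at 221, 60 and 58 bases before the annotated start, where the last pair overlap on opposite strands, Kdm3a holds it once at 92 bases before, and Gadd45g has none. In the Sry window the bases after the annotated start open with atg, the letters of a start codon. Whether transcription starts there cannot be told from the annotation, so the Sry positions are distances to the annotated start only. Such a match is common: 57.9% of 32851 windows of this length hold GATA and 4.72% hold AAGGTCA. The matches describe these letters only.

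Library totals ran from 11.6 to 53.4 M counts in the table of all deletions and from 35.5 to 51.7 M in the Meis1 table. Fgf9 was at 9.21 to 9.85 CPM (counts scaled to library size) in WT, 2.17 to 2.94 in Δ306, 2.30 to 4.75 in Δ93, 2.72 to 6.98 in Δ104 and 3.69 to 16.5 in Δ225, where replicate 3 lay above WT. Meis1 was at 0.202 to 0.694 CPM in Meis1 KO against 60.6 to 114 in WT. The XY label was checked with 8 Y-linked genes other than Sry (Ddx3y, Uty, Kdm5d, Eif2s3y, Zfy1, Zfy2, Usp9y and Uba1y). Their sum was 34.9 to 112 CPM in WT, but under 0.1 of the lowest WT library in 6 libraries: Δ306 replicate 3, Δ104 replicate 3, Δ93 replicates 3, 4 and 5, and Δ225 replicate 4. Xist, transcribed from an inactive X chromosome, was at 0.0506 to 3.09 CPM in 21 libraries of this table and at 6.26 CPM (242 counts) in Δ93 replicate 4. Germ-cell markers (5 genes) summed to 17.6 CPM in WT replicate 1 against 367 and 522 in the other WT libraries. Calls that changed without the 6 libraries low in Y-linked genes are given beside the results for the 9 genes, and as counts for the pathway lists.

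Sry was low in all 26 libraries, and the groups differed in it. It had 13, 12 and 9 counts in the 3 WT libraries, or 0.327, 0.233 and 0.237 CPM. In Δ306 it had 87, 77 and 37 counts, or 3.82, 2.29 and 1.31 CPM, so that every Δ306 library lay above every WT library. In Δ93 it ran from 0.0531 to 2.32 CPM with a median of 0.724 (2 to 107 counts). That group spans the WT levels: 2 libraries lay below WT, 1 within its range and 3 above. Δ104 had 0.167 and 0.442 CPM in replicates 1 and 2 and no counts in replicates 3 and 4, where 3 counts, the limit that a count of 0 allows, would be 0.174 and 0.146 CPM. Δ225 ran from 0 to 0.145 CPM with a median of 0.0438, and its 6 libraries together held 10 Sry counts. All Δ225 libraries lay below all WT libraries, although in the shallow replicate 1 the limit of 0.293 CPM reaches into the WT range.

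**Figure D1:**
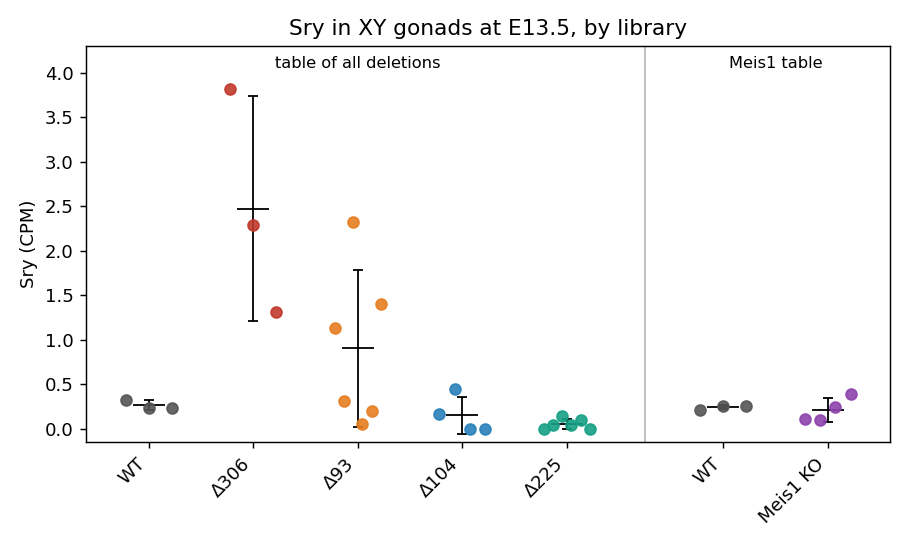
Sry in CPM (y axis, linear) in each library, by group; points are libraries, bars are the mean and SD, and the grey line separates the table of all deletions from the Meis1 table. The 3 Δ306 libraries (1.31 to 3.82 CPM) lie above WT, Δ93 is spread from 0.0531 to 2.32, and the 6 Δ225 libraries lie at or under 0.145.

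Group means of Sry were 2.47 ± 1.27 CPM in Δ306 (SD, n = 3), 0.904 ± 0.880 in Δ93 (n = 6), 0.266 ± 0.0528 in WT (n = 3), 0.152 ± 0.209 in Δ104 (n = 4) and 0.0544 ± 0.0564 in Δ225 (n = 6). In that order, no neighbouring pair differed by edgeR's quasi-likelihood test at a Benjamini-Hochberg adjusted p under 0.05. The log2 fold change of Δ306 against WT was 3.20 ± 1.097 (SE; adjusted p = 0.0819) and that of Δ93 against Δ306 was -1.45 ± 0.83 (adjusted p = 0.641). It was 1.75 ± 0.97 for Δ93 against WT (adjusted p = 0.241), -0.75 ± 1.09 for Δ104 against WT (adjusted p = 0.742) and -1.43 ± 1.11 for Δ225 against Δ104 (adjusted p = 0.706). These misses do not show equal levels, since their SEs run from 0.83 to 1.11 log2 units at counts this low. Fitted with the 2 groups alone, Sry fell to the filter on low counts in Δ225 against WT and Δ104 against WT. It also did so in Δ225 against Δ104 and Δ225 against Δ93. Its values in those comparisons come from fits that also hold the other groups.

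The call of Sry in Δ306 differed between fits. With the 22 libraries of 5 groups sharing 1 estimate, Sry missed the threshold. Fitted with the Δ306 and WT libraries alone, it rose by 3.21 (adjusted p = 0.00716), and in the first deposited table, which holds only these 6 libraries, by 3.41 (adjusted p = 0.00524). DESeq2 on all 22 gave 3.22 (adjusted p = 0.0253). Leaving out the libraries low in Y-linked genes, the shared fit gave 3.46 (adjusted p = 0.115).

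The Δ225 group was the one with the lowest Sry, and the differences from the groups with the highest passed the test in the shared fit. Sry was lower in Δ225 than in Δ306 by a log2 fold change of -5.38 ± 1.005 (adjusted p = 0.00170), and lower than in Δ93 by -3.93 ± 0.93 (adjusted p = 0.00412). Without the libraries low in Y-linked genes both remained past the threshold, at -5.59 (adjusted p = 0.0140) and -3.89 (adjusted p = 0.0231). Against WT the value for Δ225 was -2.18 ± 1.06 (adjusted p = 0.305). Δ104 against Δ306 gave -3.95 ± 1.06 (adjusted p = 0.138), with no overlap between the libraries, and by DESeq2 -3.99 (adjusted p = 0.0135). Δ93 against Δ104 gave 2.51 ± 0.96 (adjusted p = 0.241).

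Because these are bulk gonads, fewer cells of a type and less RNA per cell cannot be told apart for any of the genes. Marker sums of the supporting cells, which become Sertoli or granulosa cells, also differed between the groups. The 8 Sertoli markers summed to 1916 to 2549 CPM in WT, 82.3 to 570 in Δ306, 54.8 to 874 in Δ93, 37.0 to 2012 in Δ104 and 545 to 2234 in Δ225. The 5 pre-granulosa markers summed to 48.1 to 101 CPM in WT, 356 to 706 in Δ306, 401 to 1063 in Δ93, 58.0 to 661 in Δ104 and 49.7 to 94.4 in Δ225. None of these 13 markers was at 0 in any library. In the tissue check, 5 fetal Leydig markers summed to 870 to 1615 CPM in WT and 41.3 to 96.5 in Δ306, and 6 mesonephros markers to 8.58 to 47.3 over the 22 libraries. The part of these cell types in the levels of Sry and its regulators was not tested.

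Within Δ93 the same genes split the libraries. Replicates 1, 3 and 6 had 1.13, 2.32 and 1.403 CPM of Sry, with Sox9, the Sertoli transcription factor downstream of SRY, at 43.9, 46.1 and 74.1 CPM, and Amh, the Sertoli hormone, at 58.5, 102 and 384. Replicates 2, 4 and 5 had 0.316, 0.0531 and 0.200 CPM of Sry, with Sox9 at 9.69, 11.2 and 11.1 and Amh at 1.71, 2.49 and 1.18. Foxl2, the granulosa transcription factor, was at 42.5, 79.9 and 52.0 CPM in the first 3 and at 130, 137 and 141 in the others. The split was seen in these values and has no test. Replicate 3 of the first set and replicates 4 and 5 of the second were low in Y-linked genes (sums of 2.56, 0.439 and 0.809 CPM). Replicate 4 also had the most Xist. The XY label of these libraries is thus less sure, and its part in the split was not tested. In Δ104 the order was another: Sry had no counts in the 2 libraries with the most Sox9 (116 and 88.9 CPM) and was detected in the 2 with the most Foxl2 (77.0 and 40.5 CPM). Of these, replicate 1, at 0.167 CPM (6 counts), lay between the limits of the libraries without counts, 0.146 and 0.174 CPM. Only replicate 2, at 0.442 CPM (9 counts), lay above both limits.

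**Figure D2:**
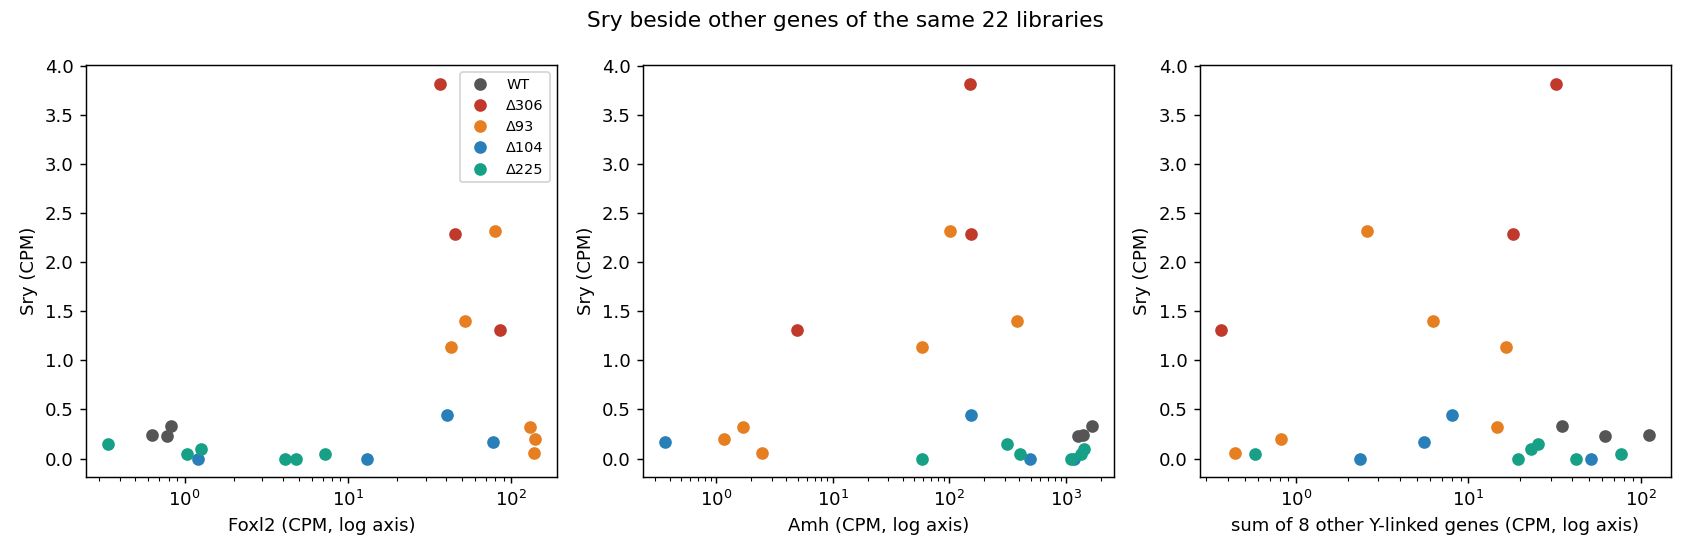
Sry in CPM (y axes, linear) against Foxl2, Amh and the sum of 8 other Y-linked genes in CPM (x axes, log) for the 22 libraries of the table of all deletions, coloured by group. Sry above 0.5 CPM appears only in Δ306 and Δ93 libraries with Foxl2 of 36.5 to 85.7 CPM, and at Y-linked sums from 0.367 to 32.3 CPM.

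Libraries with Sry above 0.5 CPM had sums of the other Y-linked genes from 0.367 to 32.3 CPM. All of these lay below the lowest WT sum, 34.9 CPM. Δ306 replicate 3 had the lowest Y-linked sum of the 22, 0.367 CPM, with Sry at 1.31 CPM. Δ93 replicate 3 had a sum of 2.56 CPM and the highest Sry of its group, 2.32 CPM. Of the other libraries low in Y-linked genes, Δ93 replicates 4 and 5 had Sry at 0.0531 and 0.200 CPM. Δ225 replicate 4 had 0.0441 CPM of Sry and Δ104 replicate 3 had no counts. WT replicate 3 had the highest sum, 112 CPM, with Sry at 0.237.

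By its group means Gadd45g was lowest in Δ225 and Δ104. The gene encodes the stress-response protein that activates MAP3K4, and was at 51.9, 46.5 and 34.2 CPM in WT and at 51.6, 48.4 and 44.5 in Δ306. It ran from 27.7 to 55.0 CPM in Δ93 with a median of 31.8. Δ104 had 20.5, 17.4, 19.8 and 30.4 CPM in replicates 1 to 4, all below WT. Δ225 ran from 10.1 to 25.4 CPM with a median of 18.4, also all below WT. Its replicates 1, 2 and 3 had 10.1, 11.3 and 16.8 CPM and replicates 4, 5 and 6 had 25.4, 21.8 and 19.9. The first 3 also had the lower sums of Sertoli markers, 545, 923 and 790 CPM against 2103, 2234 and 1788. They had the lower library totals too, 11.6, 23.3 and 20.2 M counts against 46.8, 43.0 and 41.3 M. The part of the marker sums, of depth or of a batch in the Gadd45g values was not tested.

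Gadd45g fell by 1.32 on the log2 scale in Δ225 against WT (SE 0.25, adjusted p = 0.0325), and was lower there than in Δ306 by -1.45 ± 0.25 (adjusted p = 0.00125) and than in Δ93 by -0.99 ± 0.22 (adjusted p = 0.00285). The call against WT was lost without WT replicate 1, 2 or 3 (adjusted p = 0.184, 0.243 and 0.0631), without Δ225 replicate 2 (adjusted p = 0.0522), with the 2 groups alone (adjusted p = 0.427) and without the libraries low in Y-linked genes (adjusted p = 0.0854). The log2 fold change stayed between -1.48 and -1.19 when single libraries were left out. In Δ104 the change was -1.004 ± 0.28 (adjusted p = 0.125, and 0.0262 by DESeq2), and without Δ104 replicate 4 it was called (adjusted p = 0.0359). Sry and Gadd45g both had their lowest group mean in Δ225 and their highest in Δ306. Gadd45g in Δ306 was not called against WT, at 0.12 ± 0.30 (adjusted p = 0.854). In Δ93 the mean of Gadd45g was below that of WT and the mean of Sry above it.

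Map3k4, the kinase bound by GADD45G, differed little. It was at 91.0, 114 and 113 CPM in WT and at 87.3, 85.4 and 84.1 in Δ306, all below WT. The Δ93, Δ104 and Δ225 libraries lay between 72.5 and 116 CPM. None of the 11 comparisons called it, and the log2 fold changes against WT ran from -0.31 ± 0.15 in Δ306 (adjusted p = 0.242) to -0.08 ± 0.13 in Δ93 (adjusted p = 0.731).

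Kdm3a, the histone demethylase, rose in Δ93. WT had 116, 114 and 109 CPM. Δ93 ran from 187 to 301 CPM with a median of 247, and Δ306 had 169, 180 and 227, so no library of either overlapped WT. Δ104 had 323, 204, 149 and 101 CPM in replicates 1 to 4 and overlapped WT. Δ225 ran from 102 to 174 CPM with a median of 135.

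In Δ93 Kdm3a rose by 1.12 ± 0.26 against WT (log2; adjusted p = 0.00760), and it was lower in Δ225 than in Δ93 by -0.86 ± 0.20 (adjusted p = 0.00538). Both calls held with any single library left out and were lost without the libraries low in Y-linked genes, where the values were 1.06 (adjusted p = 0.0770) and -0.78 (adjusted p = 0.124). In Δ306 the change was 0.76 ± 0.29 (adjusted p = 0.116), called in the first table alone at 0.84 (adjusted p = 0.00777). Δ104 gave 0.78 ± 0.27 (adjusted p = 0.208), called without replicate 4 (adjusted p = 0.0342). In Δ225 the change was 0.27 ± 0.25 (adjusted p = 0.596).

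**Figure D3:**
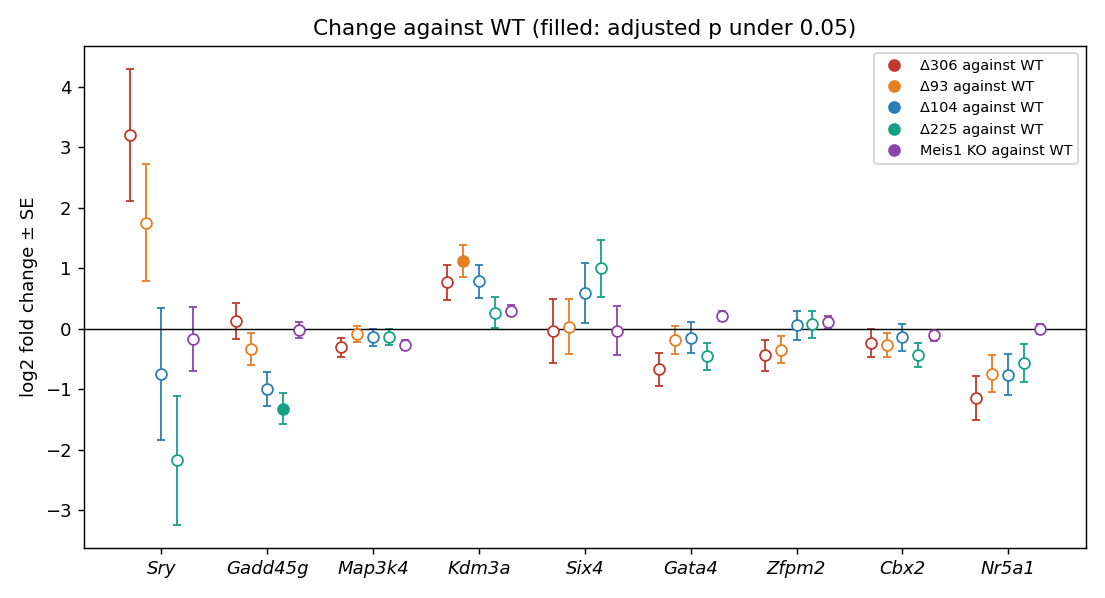
Log2 fold change against WT with its SE (y axis) for each of the 9 genes in the 5 comparisons with WT; filled points passed an adjusted p of 0.05. Filled are Kdm3a in Δ93 (1.12) and Gadd45g in Δ225 (-1.32), and the SE of Sry is the widest of the 9 genes in each comparison.

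Among the transcription factors, Gata4, a zinc-finger protein, was at 416, 437 and 373 CPM in WT and at 269, 264 and 234 in Δ306, all below WT. It ran from 274 to 438 CPM in Δ93, from 304 to 465 in Δ104 and from 143 to 422 in Δ225. Within Δ225, replicates 1, 2 and 3 had 143, 250 and 250 CPM and replicates 4, 5 and 6 had 422, 367 and 348. In Δ306 the change was -0.67 ± 0.27 (adjusted p = 0.138), called in the first table alone at -0.61 (adjusted p = 0.0137). Zfpm2, its cofactor, was at 79.0, 70.0 and 57.9 CPM in WT and at 65.4, 45.2 and 41.6 in Δ306, which overlapped. Its change was -0.44 ± 0.26 in Δ306 (adjusted p = 0.340) and -0.35 ± 0.22 in Δ93 (adjusted p = 0.326).

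Nr5a1 was lower than WT by its mean in all 4 deletions. WT had 381, 391 and 355 CPM, Δ306 had 170, 184 and 155, and Δ104 had 166, 176, 260 and 283 in replicates 1, 2, 3 and 4. Δ93 ran from 162 to 290 CPM with a median of 225.2. All libraries of those 3 deletions lay below all WT libraries. Δ225 was split: replicates 1, 2 and 3 had 99.7, 191 and 149 CPM, and replicates 4, 5 and 6 had 386, 352 and 343. The same sets of libraries differed in library totals and Sertoli marker sums. The log2 fold changes were -1.15 ± 0.37 in Δ306 (adjusted p = 0.0643), -0.76 ± 0.34 in Δ104 (adjusted p = 0.288), -0.75 ± 0.31 in Δ93 (adjusted p = 0.109) and -0.57 ± 0.31 in Δ225 (adjusted p = 0.358). None was called in the shared fit. In Δ306 it was called by DESeq2 (-1.14, adjusted p = 0.0217) and in the first table alone (-1.08, adjusted p = 0.00188), and in Δ93 with the 2 groups alone (-0.75, adjusted p = 0.0124). A fit with the replicate number as a block, whose numbers were not found to pair the libraries, called it in Δ306 too, in Δ225 at -1.03 (adjusted p = 0.0441) and in Δ93 at -1.08 (adjusted p = 0.0151).

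Six4 and Cbx2 passed the test in none of the 11 comparisons of the shared fit and the Meis1 table. Six4 was called as higher in Δ225 than in Δ93 by DESeq2 and by edgeR without Δ93 replicate 1 or 6, and than in Δ306 by edgeR with the 2 groups alone. Six4, a homeobox factor, was at 7.54, 27.4 and 32.5 CPM in WT, where replicate 1, the library low in germ-cell markers, was the low one. Δ225 ran from 33.1 to 60.9 CPM with a median of 40.1, all above WT, at a log2 fold change of 0.999 ± 0.47 (adjusted p = 0.305). Cbx2 was at 80.7, 94.9 and 90.6 CPM in WT and from 70.8 to 79.1 in Δ306. In Δ225 it ran from 34.1 to 78.1, also below WT, at -0.44 ± 0.20 (adjusted p = 0.298).

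**Figure D4:**
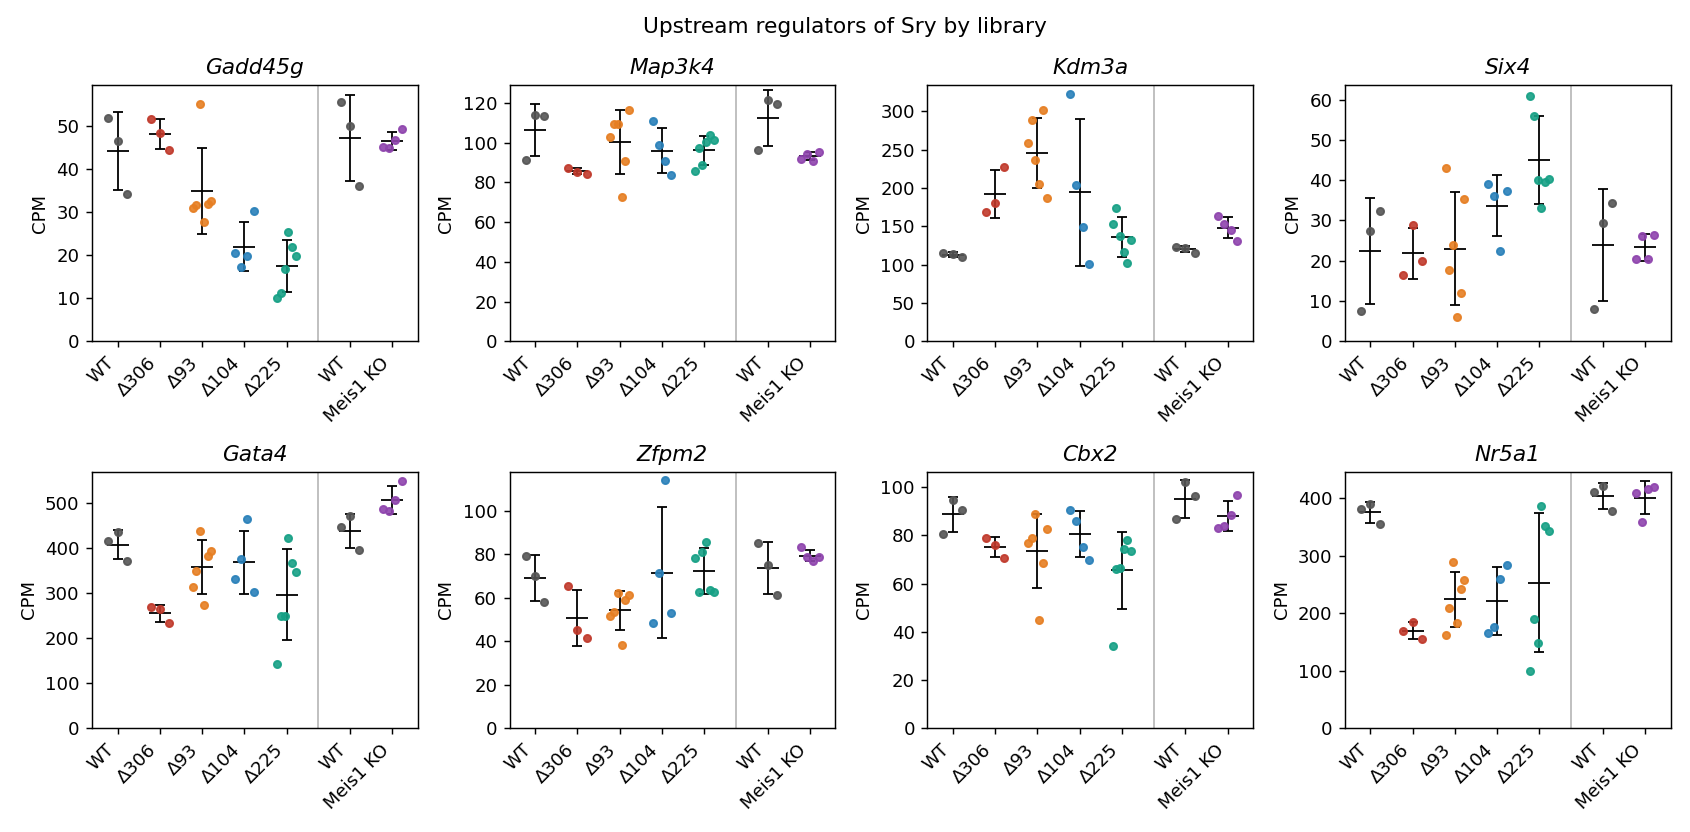
CPM (y axes, linear from 0) of the 8 upstream regulators in each library, by group; points are libraries, bars the mean and SD, and the grey line separates the 2 tables. By group means, Gadd45g is lowest in Δ104 (17.4 to 30.4) and Δ225 (10.1 to 25.4), and Kdm3a is highest in Δ93 (187 to 301). The highest single Kdm3a library is Δ104 replicate 1, at 323. Nr5a1 in Δ225 falls into 99.7 to 191 and 343 to 386.

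The counts of members called are given beside the share of all genes called in the same comparison. In Δ306 against WT edgeR called 0 of 9, with 4 at an unadjusted p under 0.05, where 6.43% of all genes tested were called. DESeq2 called 2 (Sry and Nr5a1; 11.9% of all genes), and edgeR called 4 (Sry, Kdm3a, Gata4 and Nr5a1) in the first table alone (18.8%) and with the 2 groups alone (17.5%). In Δ93 1 of 9 was called, Kdm3a, with 14.1% of all genes called. In Δ225 it was 1 of 9, Gadd45g, with 0.209%. In Δ104 it was 0 of 9 by edgeR, with 3 at an unadjusted p under 0.05, where edgeR called 0.0610% of all genes. DESeq2 called 1 there (Gadd45g). Outside Δ306 against WT the share of all genes called by DESeq2 was not taken, so its counts have no share beside them.

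Between deletions, 3 of 9 were called in Δ225 against Δ93 (Sry, Gadd45g and Kdm3a, all lower in Δ225), where 20.8% of all genes were, and 2 of 9 in Δ225 against Δ306 (Sry and Gadd45g, lower in Δ225), where 13.2% were. Shares of all genes here are of calls by edgeR, not by DESeq2. The other 4 comparisons had 0 of 9 by edgeR. Those were Δ225 against Δ104 (0.645% of all genes; 1 at an unadjusted p under 0.05, 0 by DESeq2), Δ93 against Δ104 (0.0523%; 2 and 0), Δ93 against Δ306 (0.0785%; 0 and 0) and Δ104 against Δ306 (0.0654%; 2 and 2).

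Libraries of the 2 groups did not overlap for 6 of 9 members in Δ306 against WT, where 37.6% of all genes did not. These were Sry and Kdm3a above WT and Map3k4, Gata4, Cbx2 and Nr5a1 below. The count was 4 of 9 in Δ225 (10.1% of all genes), with Six4 above and Sry, Gadd45g and Cbx2 below, 2 of 9 in Δ104 (18.1%), Gadd45g and Nr5a1 below, and 2 of 9 in Δ93 (24.7%), Kdm3a above and Nr5a1 below. Between deletions it was 3 of 9 in Δ225 against Δ93 (11.0%), with Zfpm2 higher and Gadd45g and Kdm3a lower in Δ225. It was 3 in Δ225 against Δ306 (20.2%), with Six4 higher and Sry and Gadd45g lower in Δ225. It was 3 in Δ104 against Δ306 (11.2%), with Gata4 higher and Sry and Gadd45g lower in Δ104. It was 1 in Δ93 against Δ306 (6.38%), Gata4 higher in Δ93, and 0 in Δ225 against Δ104 (1.67%) and in Δ93 against Δ104 (1.89%). The median log2 fold change of the 9 against WT was -0.24 in Δ306, -0.44 in Δ225, -0.14 in Δ104 and -0.19 in Δ93, beside 0.08, 0.04, 0.06 and 0.06 over all genes. The comparisons with WT share their WT libraries.

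The levels of the 9 genes spanned a wide range. Per kilobase of exon in WT, Gata4 was highest at 105 ± 8.32 CPM per kb (SD, n = 3), followed by Nr5a1 at 88.6 ± 4.35, Gadd45g at 37.7 ± 7.70, Cbx2 at 20.8 ± 1.72, Kdm3a at 13.7 ± 0.393, Map3k4 at 10.4 ± 1.29, Zfpm2 at 7.23 ± 1.11, Six4 at 2.07 ± 1.21 and Sry at 0.224 ± 0.0444. In Δ306 Sry reached 2.08 ± 1.06 CPM per kb, beside Six4 at 2.01 ± 0.585. These lengths are of the annotated models, 1188 bp for Sry and 10855 bp for Six4, and the Sry model opens with atg. Both levels therefore depend on the models, whose untranslated parts were not compared.

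In Meis1 KO none of the 9 was called. Sry had 5, 4, 13 and 18 counts in the KO libraries, or 0.111, 0.0959, 0.249 and 0.386 CPM, against 0.216, 0.254 and 0.252 in WT, at a log2 fold change of -0.18 ± 0.53 (adjusted p = 0.897). The KO libraries lie on both sides of WT. Kdm3a was at 164, 153, 145 and 131 CPM against 124, 122 and 116 in WT, with no overlap, at 0.30 ± 0.09 (adjusted p = 0.116, and 0.04998 by DESeq2). Gata4 was also without overlap, at 488, 484, 508 and 550 CPM in KO against 448, 471 and 397 (0.21 ± 0.09, adjusted p = 0.237). Map3k4 lay below WT, at 90.9 to 95.4 CPM against 96.4 to 122 (-0.27 ± 0.09, adjusted p = 0.150), and was called without WT replicate 1 (-0.37, adjusted p = 0.0108).

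By edgeR 0 of 9 members were called in Meis1 KO, with 3 at an unadjusted p under 0.05, where 1.80% of all genes were called. DESeq2 called 1 (Kdm3a), with no share of all genes taken. Libraries did not overlap for 3 of 9, where 19.7% of all genes did not. The 8 Y-linked genes summed to 15.2 to 29.7 CPM in KO and to 37.7 to 123 in WT of this table, with no overlap, and their part in the values above was not tested.

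The genes around these regulators were followed in 7 lists of 43 genes in all. Without the libraries low in Y-linked genes, 0 of the 5 genes of these lists called in Δ306 and 1 of the 10 called in Δ93 against WT passed the test (Tcf21, -1.80, adjusted p = 0.0412), all with the same sign. Of the 7 transcription factors that form the early gonad, Nr0b1 (DAX1, which counters SRY when in excess) rose in Δ306 by 1.23 ± 0.32 (adjusted p = 0.0276) and in Δ93 by 1.17 ± 0.29 (adjusted p = 0.0105). Emx2, a homeobox gene of the early gonad, rose by 1.29 ± 0.34 (adjusted p = 0.0300) and 1.44 ± 0.31 (adjusted p = 0.00499), and Wt1 in Δ93 by 0.59 ± 0.18 (adjusted p = 0.0341). So 2 of 7 rose in Δ306 and 3 of 7 in Δ93, and none fell, beside 6.43% and 14.1% of all genes called. Of the 2 GATA and FOG relatives, Gata6 rose in Δ93 by 0.74 ± 0.25 (adjusted p = 0.0493) and Zfpm1 was not called against WT.

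In the GADD45, MAP kinase and p38 list of 9, Mapk13 (p38δ) fell by 2.38 in Δ306 (SE 0.61, adjusted p = 0.0246) and by 2.33 in Δ93 (SE 0.48, adjusted p = 0.00365). Gadd45b, a paralogue of Gadd45g, rose in Δ93 by 1.14 ± 0.25 (adjusted p = 0.00543) and Mapk11 (p38β) fell by 1.05 (SE 0.32, adjusted p = 0.0311). No gene was called against WT among 5 of histone H3 lysine 9 methylation, 13 Polycomb partners of CBX2 and 3 insulin-family receptors, which act before Sry, in any of the 4 deletions by edgeR. In Δ306 and Δ93 those 3 lists together held 1 and 1 calls by DESeq2, both among the receptors, and in Δ225 and Δ104 they held 0. At an unadjusted p under 0.05 the counts in Δ306 were 0, 2 and 3, in Δ93 1, 2 and 1, in Δ225 2, 6 and 1 and in Δ104 0, 0 and 0.

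Of 4 genes known to be activated downstream of SRY, Cbln4 fell by 3.04 on the log2 scale in Δ306 (SE 0.80, adjusted p = 0.0287) and fell by 3.37 in Δ93 (SE 0.63, adjusted p = 0.00194). Tcf21 fell by 1.48 (SE 0.40, adjusted p = 0.0299) in Δ306 and fell by 1.63 in Δ93 (SE 0.32, adjusted p = 0.00285), and Ntf3 fell by 2.63 in Δ93 (SE 0.54, adjusted p = 0.00328). Sox9 was not called, at -1.27 ± 0.73 in Δ306 (adjusted p = 0.327) and -1.63 ± 0.60 in Δ93 (adjusted p = 0.0742). So in Δ306 and Δ93, where Sry had its 2 highest group means, 2 of 4 and 3 of 4 of these genes fell by the test and none rose, beside 6.43% and 14.1% of all genes called.

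Over the 43 genes edgeR called 5 in Δ306 (12 at an unadjusted p under 0.05) and 10 in Δ93 (16). It called 0 in Δ225, with 12 at an unadjusted p under 0.05 and 0 by DESeq2, and 0 in Δ104, with 4 and 1. In Meis1 KO it called 2, with 11 at an unadjusted p under 0.05 and 6 by DESeq2. Map3k1, a kinase of the same family as Map3k4, rose by 0.31 ± 0.06 (adjusted p = 0.0449) and Mapk13 fell by 0.42 (SE 0.08, adjusted p = 0.0443). Against Δ93, Δ225 had 11 of the 43 higher and 8 lower, beside 20.8% of all genes called, and 2 of these 19 (Nr0b1 and Gadd45b) passed without the libraries low in Y-linked genes. All 4 genes downstream of SRY were among the higher, with Sox9 at 1.57 ± 0.52 (adjusted p = 0.0376), and so were the 3 receptors Insr, Igf1r and Insrr, at 0.47, 0.83 and 2.10 (adjusted p = 0.0335, 0.00181 and 0.0145), which are named here after their values were seen.

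The genes whose log2 CPM followed Sry most closely over the 22 libraries were 2700046A07Rik (Pearson r = 0.91), Coch (0.89), Gm11538 (0.87), Rnase1 (0.85) and Dkk4 (0.85). Coch, which encodes cochlin, a secreted protein, had a mean of 29.0 CPM in Δ306, 20.03 in Δ93, 11.8 in Δ104, 8.48 in WT and 7.27 in Δ225. With each group's mean subtracted, the closest were Coch (0.83), Mid1-ps1 (0.79), Tarbp1 (0.79), Igf2bp1 (0.79) and Dcp1a (0.79). Coch was in both lists of 5. Among the regulators, Gadd45g had r = 0.69 over the 22 libraries and 0.23 with group means subtracted, and Map3k4 0.16 and 0.63. These values describe the 22 libraries, which share their groups and differ in depth. Gm11538 and Dkk4 had means under 1 CPM in every group. So did Rnase1 in WT (0.835), Δ104 (0.818) and Δ225 (0.525), and 2700046A07Rik in Δ225 (0.660).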

How the data were processed

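Polyadenylated RNA of 26 samples was measured as raw counts per gene, which the authors deposited in tables with Ensembl identifiers. Per the submitters' processing notes, reads were mapped to mm10 with STAR (2.7.10a for WT and Δ306, with featureCounts from Subread; no version for the others), and DESeq2 was used. The annotation and the strand setting are not given in the sources used here. Per the labels' protocols, libraries were made with a directional poly(A) kit.

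The test was that of edgeR 4.0.16 under R 4.3.3 (genes kept by filterByExpr, TMM, quasi-likelihood F-test, Benjamini-Hochberg over all genes tested), called at an adjusted p under 0.05. One fit of 22 libraries (22941 genes, 17 residual degrees of freedom) gave 10 comparisons, and the Meis1 table (16791 genes, 5 residual degrees of freedom) the last of 11. Standard errors were taken from the unshrunk log2 fold change and F. CPM are relative to TMM-scaled library sizes for single genes and to total counts for Meis1, Xist and sums over marker lists. Mutant columns of the first table carry the name fgf9 only and were taken as Δ306, which the series' design names. In that table same-numbered libraries correlated at 0.986 to 0.988 with those of the table of all deletions. All pairs of replicates differed beyond counting noise (chi-square per degree of freedom 9.65 to 343 in the table of all deletions). Limits for a count of 0 are 3 counts, and cover counting error only.

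The members and lists were chosen with earlier results of these data known. Named are all 9 members, the 5 genes most correlated with Sry (log2 CPM, prior count 2) over 22 libraries and the 5 after subtracting group means, listed genes called against WT (up to 4 per list and comparison), Fgf9, Meis1 and the Y-linked genes. Alternatives were RLE scaling, no composition factor, no filter, a replicate block, DESeq2 1.42.0, the 2 groups alone, the first table alone, each library left out and, added after seeing the data, no libraries with a Y-linked sum under 0.1 of the lowest WT library. The tests were run on simulated counts first.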

Additional observations from a re-analysis of the deposited data

Results flagged for a closer look

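In 36 groups of 4 to 6 libraries (9 genes in 4 groups), 1 library stood far from the others of its group by Dixon's test in 2 cases, and chance marks about 1 in 20. Gadd45g was at 55.0 CPM in Δ93 replicate 3, above the 27.7 to 32.6 of the other 5 libraries, and the same library had the highest Sry of its group. Cbx2 was at 34.1 CPM in Δ225 replicate 1, below the 66.1 to 78.1 of the others, in the library with the lowest total, 11.6 M counts.

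Differences between deletions that passed the test of the difference itself were Sry in Δ225 against Δ306 (-5.38) and against Δ93 (-3.93), Gadd45g in Δ225 against Δ306 (-1.45) and against Δ93 (-0.99), and Kdm3a in Δ225 against Δ93 (-0.86), all as log2 fold changes by edgeR.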

How the results depend on the processing

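Over all alternatives, 160 of 166 values for Sry and 578 of 630 for the other members kept their direction and their side of the threshold. The calls of Sry in Δ225 against Δ306 and against Δ93 held wherever Sry was tested. With Δ225 and Δ93 alone, 8 members were tested and Sry fell to the filter. For Sry in Δ306 against WT, DESeq2 gave 3.22, the 2 groups alone 3.21 and the first table alone 3.41, all called, and in Δ104 against Δ306 DESeq2 gave -3.99, called. Leaving out single libraries, Sry in Δ306 ran from 2.71 to 3.46, and in Meis1 KO from -0.63 to 0.051.

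Members called in Δ306 against WT were 2 by DESeq2 (11.9% of all genes called) and 4 with the 2 groups alone (17.5%) or the first table alone (18.8%). In Δ225 against WT they were 0 with the 2 groups alone, where 8 members were tested and Sry fell to the filter, and 0 without the libraries low in Y-linked genes. In Δ93 they were 2 with the 2 groups alone and 0 without those libraries. By DESeq2 they were 1 in Δ104, 2 in Δ104 against Δ306 and 1 in Meis1 KO. Leaving out single libraries, they ran from 0 to 1 in Δ225, 0 to 2 in Δ104, 0 to 1 in Δ104 against Δ306 and 0 to 2 in Meis1 KO. The cause of these shifts was not tested. The share of all genes called under these settings was taken only for Δ306 against WT. The other counts therefore cannot be read as many or few for the 9 genes.

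With the replicate number as a block, members called were 1 in Δ306 (Nr5a1, -1.15, adjusted p = 0.0400), 2 in Δ225 (Gadd45g and Nr5a1) and 2 in Δ93 (Kdm3a and Nr5a1). The share of all genes called in this fit was not taken. The labels tie same-numbered libraries by the number only. In the table of all deletions, deviations correlated over 0.1 in 9 of 35 same-numbered pairs and in 44 of 154 different-numbered pairs. In the Meis1 table this was 2 of 3 and 3 of 9, with medians of 0.326 and -0.189. Whether the numbers pair libraries in the Meis1 table cannot be told from so few pairs. In the block Six4 in Meis1 KO was 0.11.

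Uncalled values that changed sign were Six4 in Δ306 (0.077 with no composition factor, 0.030 in the first table), Six4 in Δ93 (-0.000615 with no filter), and, without the libraries low in Y-linked genes, Zfpm2 in Δ225 (-0.0089) and Δ104 (-0.31). Leaving out single libraries, signs changed for Gadd45g (-0.067 to 0.23) and Six4 (-0.48 to 0.30) in Δ306, Zfpm2 in Δ225 (-0.057 to 0.18) and Δ104 (-0.26 to 0.21), Map3k4 (-0.18 to 0.022) and Six4 (-0.38 to 0.39) in Δ93, and Gadd45g (-0.19 to 0.11), Six4 (-0.45 to 0.31), Zfpm2 (-0.018 to 0.22) and Nr5a1 (-0.061 to 0.042) in Meis1 KO. With no composition factor the median over all genes in Δ225 against Δ306 moved from -0.01 to -0.11. With 34 Sry counts over the WT libraries and 10 over Δ225, counting error is large for Sry in these groups.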
